A study of Mus musculus with 12 samples.

Results

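The genes described here are 10 mouse genes of the NRF2 antioxidant programme and of the glutathione transferases: Gstm1, Gstm2, Gsta4, Gstp1, Nqo1, Hmox1, Gclc, Gclm, Srxn1 and Txnrd1. They were chosen by name, as a list of NRF2 targets and transferases, with earlier results of these data known. All 10 were found among the 43243 gene names of each library. RNA was sequenced from 12 libraries of mouse prostate organoids, which are Matrigel cultures grown from dissociated prostate cells in medium with EGF at 5 to 50 ng/ml. There were 6 libraries labelled SPOPmut and 6 labelled SPOPwt, numbered S0 to S5 in both groups and read as 6 pairs. SPOP picks the substrates of a ubiquitin ligase built on the scaffold CUL3, and the comparison asks which transcripts differ between mutant and control organoids. Both groups come from protocols in which CreERT2, a Cre recombinase that tamoxifen activates, was switched on with 1 µM of a tamoxifen metabolite.

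In 5 pairs (model A) CreERT2 was brought in by virus with puromycin selection, and in 1 pair (model B) it came from a TMPRSS2-CreERT2 transgene. No library label says which pair is from model B. Mutant cells were sorted for GFP and control cells went through a sham sort, so the genotype and the GFP selection cannot be told apart. The allele is named F133V only for separate, non-inducible lines with Cre under the Probasin promoter. The labels say nothing of the age or strain of the mice, or of whether the pairs came from separate animals or cultures. The p-values therefore measure only the spread between these pairs, which may be technical.

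NRF2 (gene Nfe2l2) is a transcription factor that binds antioxidant response elements together with small MAF proteins. KEAP1 holds it low by presenting it to a CUL3 ubiquitin ligase, and oxidants and electrophiles that modify KEAP1 let NRF2 accumulate. Its targets make glutathione, join glutathione to electrophiles, keep thioredoxin and peroxiredoxins reduced, and remove quinones and heme. KEAP1 and SPOP are both substrate adaptors of CUL3, each with its own substrates.

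Promoter stretches of 4 of the genes are shown because these hold a match to the core of an antioxidant response element or to the related AP-1 site. RefSeq promoters on GRCm38.p6, from 250 bases before to 50 after a start site, were found for 7 of the 10 genes in 10 windows, and Gsta4, Hmox1 and Gclc were not among them. The motifs searched on both strands were TGACNNNGC, which 12.4% of 32851 windows hold, and TGAGTCA, which 5.20% hold. Either was present in 16.6% of windows, and a single site can match both. Each line gives 160 bases directly before a start site, 5′ to 3′ on the gene's strand, with the match in capitals.
Gstp1, chr19:4037913-4038072, minus strand: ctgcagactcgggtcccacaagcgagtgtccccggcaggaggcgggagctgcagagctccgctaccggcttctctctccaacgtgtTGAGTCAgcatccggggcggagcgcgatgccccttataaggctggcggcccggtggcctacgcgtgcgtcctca
Gclm, chr3:122245397-122245556, plus strand: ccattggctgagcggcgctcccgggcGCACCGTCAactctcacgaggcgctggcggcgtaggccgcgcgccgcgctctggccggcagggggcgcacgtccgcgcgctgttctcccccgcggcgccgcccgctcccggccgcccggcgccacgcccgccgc
Srxn1, chr2:152105364-152105523, plus strand: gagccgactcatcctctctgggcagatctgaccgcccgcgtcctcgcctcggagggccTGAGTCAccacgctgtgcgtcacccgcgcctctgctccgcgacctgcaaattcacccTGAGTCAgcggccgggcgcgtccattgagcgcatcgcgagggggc
Txnrd1, chr10:82859046-82859205, plus strand: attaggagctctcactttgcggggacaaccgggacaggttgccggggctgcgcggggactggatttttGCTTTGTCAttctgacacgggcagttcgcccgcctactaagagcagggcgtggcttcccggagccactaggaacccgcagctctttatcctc
In Gclm and Txnrd1 the match lies on the opposite strand and is printed as its reverse complement. The Txnrd1 stretch belongs to the second of 3 start sites, and the other windows of that gene held no match. Srxn1 had a further match, TGACCTAGC on the opposite strand, at position 29 after its start. The windows of Gstm1, Gstm2 and Nqo1 held no match, which says only that these letters are not in these windows.

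The values are RPKM, reads relative to transcript length and library depth, so levels can be set side by side between genes. The depth estimated from the spacing of low values was about 28300000 to 41100000 reads per library. Spop itself had a log2(RPKM + 1) difference of 0.16 (SE 0.067, limma adjusted p = 0.886), with the mutant library higher in 6 of 6 pairs. Pair S5 stood apart from the other 5 pairs. Summed RPKM of basal epithelial markers (4 of 4 found, Krt5 the most abundant) reached 2003 to 2895 in S5, against 0.915 to 8.30 in all others. Luminal markers (4 of 4, led by Krt18) summed to 846 to 939 there and elsewhere to 8.24 to 111, with Pbsn at 0 everywhere, and adhesion markers (2 of 2, led by Cdh1) to 217 to 224 and 0.202 to 2.62. Mesenchymal markers (4 of 4, led by Col1a1) summed to at most 0.314 in S5, against 746 to 1249 in the other 10 libraries. The libraries of S0 to S4 thus held little of the defining epithelial transcripts that the prostate organoid label would call for. Immune markers (5 of 5, led by Cd68) summed to at most 7.70 in any library, endothelial markers (3 of 3, the highest single value in Cdh5) to at most 1.70 and erythroid markers (3 of 3, the highest single value in Hba-a1) to at most 1.20. In pair S0 mutant and control were far apart, with an SD of 0.56 over the log2 differences of 13600 genes, against 0.16 to 0.30 in the other pairs. The controls of S1 and S2 were nearly alike (r = 0.997 across genes).

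The mu-class transferases Gstm1 and Gstm2 join glutathione to electrophiles and sit side by side on chromosome 3 (GRCm38), Gstm1 at 108012255 to 108017973 and Gstm2 at 107981702 to 107986453, both on the minus strand. Gstm1 ran from 2.04 through a median of 66.8 to 107 RPKM in the SPOPmut libraries and from 1.81 through 40.1 to 83.8 in the SPOPwt libraries. The lowest library of each group was that of S5, and the groups overlapped. By pair, SPOPmut and SPOPwt stood at 62.4 and 36.2 in S0, 88.3 and 39.3 in S1, 58.5 and 40.8 in S2, 107 and 83.8 in S3, 71.1 and 80.2 in S4, and 2.04 and 1.81 in S5. The mutant library was thus the higher in every pair but S4, and by most in S1. Of the 51-base stretches of Gstm1 transcripts, 18.5% also occur in other genes, chiefly Gstm2-ps1 and Gstm3, so its level is uncertain to the extent that the counting shared such reads.

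Gstm2 ran from 0.299 through 30.6 to 51.2 RPKM in SPOPmut and from 0.226 through 22.8 to 46.5 in SPOPwt, with 5.48% of its 51-base stretches shared. It again had its minimum in S5 and was the higher in the mutant in 5 of 6 pairs, S4 excepted. Gsta4, an alpha-class transferase that acts on lipid peroxidation products such as hydroxynonenal, lies on chromosome 9 at 78182774 to 78209349, plus strand. Its SPOPmut levels were 1.77 to 7.62 RPKM in S0 to S4 and 169 in S5, and its SPOPwt levels were 1.47 to 5.11 and 171. Gsta4 was the lowest of the 4 transferases in every library of S0 to S4, and in S5 the order was turned over: Gsta4 was the highest there and Gstm1 and Gstm2 were the lowest.

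Gstp1, the pi-class transferase, lies on chromosome 19 at 4035407 to 4037985, minus strand. It ran from 37.3 through 55.8 to 87.9 RPKM in SPOPmut and from 43.0 through 73.5 to 80.9 in SPOPwt. Its lowest library in each group was again S5, and the groups overlapped. A larger part of it, 33.5% of its 51-base stretches, is shared with Gstp2, which itself stood at 2.32 to 5.62 RPKM.

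**Figure D1:**
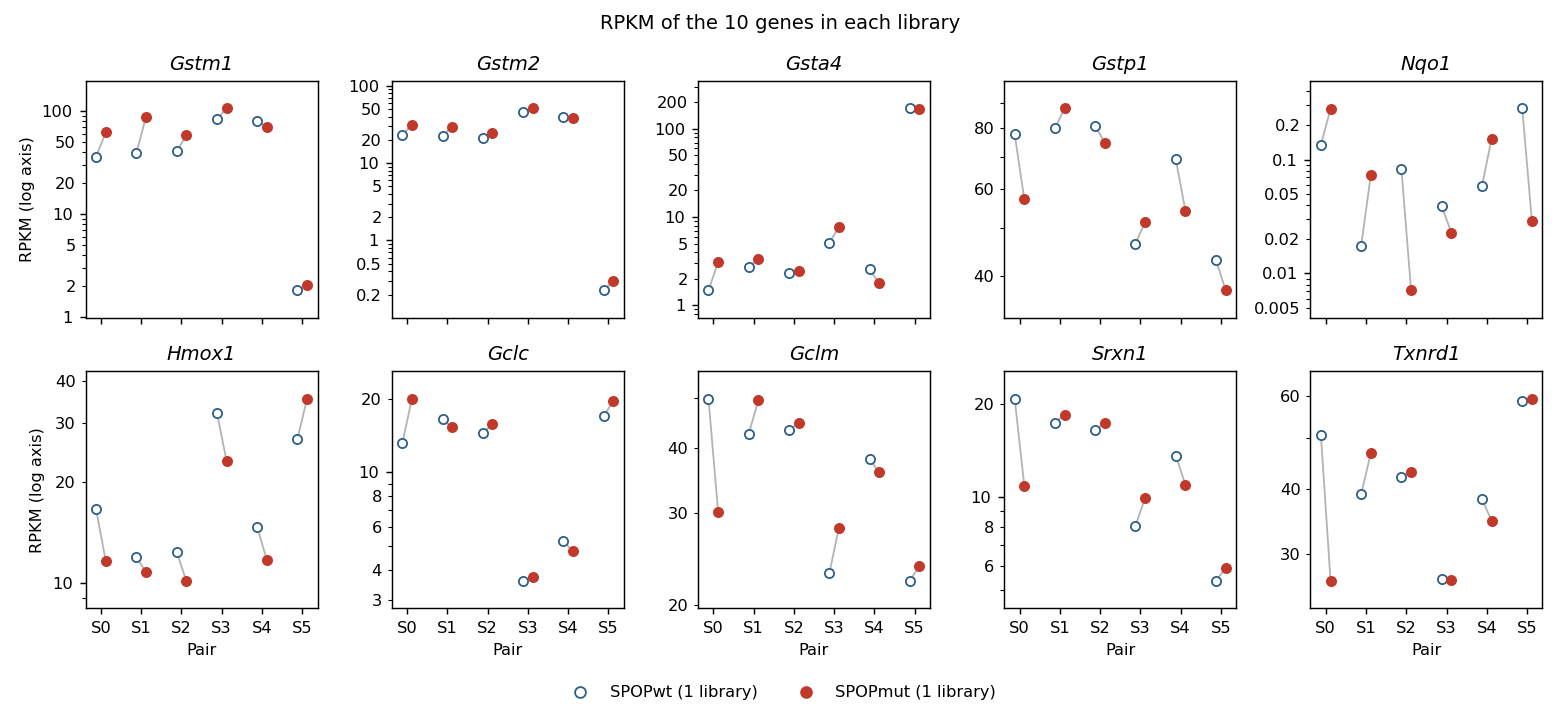
RPKM of each of the 10 genes (vertical log axes, a scale of its own per gene) in the SPOPwt library (open) and the SPOPmut library (filled) of pairs S0 to S5; a line joins the libraries of a pair. Gstm1 and Gstm2 drop to at most 2.04 and 0.299 in S5, Gsta4 reaches 169 and 171 there, and Nqo1 is at most 0.282 in every library.

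Gclc and Gclm are the catalytic and the modifier subunit of glutamate-cysteine ligase, which makes the first and rate-limiting step of glutathione synthesis. Gclc (chromosome 9, 77754535 to 77794485, plus strand) was at 20.04, 15.3, 15.8, 3.73, 4.77 and 19.6 RPKM in the SPOPmut libraries S0 to S5, and at 13.1, 16.5, 14.4, 3.61, 5.23 and 17.0 in the SPOPwt libraries. The 4 libraries of S3 and S4 were low in both genotypes and lay apart from all others. Gclm (chromosome 3, 122245557 to 122270732, plus strand) ran from 23.8 through 33.1 to 49.5 RPKM in SPOPmut and from 22.3 through 40.3 to 49.8 in SPOPwt. Its libraries of S3 and S4, at 23.0 to 38.1, were lower by the mean than those of S0 to S2 but did not lie apart from all others. The groups overlapped for both subunits. Exons of Gclm overlap those of Gm17494 on the opposite strand and of the pseudogene Gm6061, and the kit does not mark strand, so their reads cannot be told apart there. Of the 51-base stretches of Gclm, 4.54% also occur in other genes, chiefly Gm17494 (3.89%) and Ppia (3.23%). Its level is uncertain to the extent that the counting shared such reads.

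Srxn1 encodes sulfiredoxin, which restores overoxidized peroxiredoxins, and Txnrd1 encodes the cytosolic reductase that keeps thioredoxin reduced. Srxn1 (chromosome 2, 152105516 to 152111376, plus strand) ran from 5.90 through 10.9 to 18.5 RPKM in SPOPmut and from 5.37 through 15.1 to 20.9 in SPOPwt. Txnrd1 (chromosome 10, 82833951 to 82897712, plus strand) ran from 26.7 through 38.9 to 59.3 and from 26.9 through 40.6 to 58.7. Both overlapped between the genotypes, but S5 held the lowest Srxn1 and the highest Txnrd1 of each group. In S0 alone the mutant was far below its control in Gclm (30.1 and 49.8 RPKM), Srxn1 (10.9 and 20.9) and Txnrd1 (26.7 and 50.5). The S0 libraries carry the same number, but their deviations from the group means hardly went together (r = 0.0602 across genes, 0.753 to 0.954 in the other pairs), so the S0 differences may not be within a true pair.

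Hmox1, heme oxygenase, breaks down heme and is also a target of the repressor BACH1. It lies on chromosome 8 at 75093621 to 75100589, plus strand. Its levels in SPOPmut and SPOPwt were 11.6 and 16.6 RPKM in S0, 10.8 and 11.96 in S1, 10.2 and 12.4 in S2, 23.1 and 32.1 in S3, 11.7 and 14.7 in S4, and 35.4 and 26.8 in S5. The mutant was the lower in S0 to S4 and the higher in S5, and S3 and S5 held the highest levels. Nqo1, a quinone reductase often used as a readout of NRF2 (chromosome 8, 107388225 to 107403206, minus strand), went against its place in the list. It was at 0.0071 to 0.278 RPKM in SPOPmut and at 0.0174 to 0.282 in SPOPwt, about 0.4 to 18.0 reads per library by the estimated depth. It stayed below the level required for the genotype test and was not tested.

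The genotype comparison asks whether the antioxidant genes differ between mutant and control organoids within pairs. Of the 9 genes tested, 4 were higher and 5 lower in SPOPmut, and none passed an adjusted p under 0.05 in limma; across all 13600 genes 0% passed. At an unadjusted p under 0.05 there were 2 of the 9 genes, both higher, where 3.82% of all genes were higher and 1.77% lower at that level, 5.60% in all. The median difference over the 9 genes was -0.026 on the log2(RPKM + 1) scale, against 0.00055 over all genes.

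The 2 genes were the neighbours Gstm1 and Gstm2. Gstm1 had a mean of 64.9 ± 35.7 RPKM in SPOPmut and 47.0 ± 30.7 in SPOPwt (SD, n = 6), a paired difference of 0.45 (SE 0.16, 95% interval 0.084 to 0.82, limma unadjusted p = 0.0219, adjusted p = 0.881), higher in 5 of 6 pairs. The pair differences were 0.77, 1.15, 0.51, 0.35, -0.17 and 0.11 from S0 to S5. For Gstm2 the difference was 0.20 (SE 0.077, 95% interval 0.027 to 0.38, limma unadjusted p = 0.0288, adjusted p = 0.881), also in 5 of 6 pairs. Over all genes tested, 15.6% were higher in at least 5 of 6 pairs and 9.67% lower. Neither gene therefore stood beyond the spread between pairs once all genes were counted.

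Hmox1 was lower in SPOPmut in 5 of 6 pairs, with a log2 difference of -0.21 (SE 0.11, 95% interval -0.47 to 0.055, limma adjusted p = 0.887). Its difference was 0.39 in S5 but -0.14 to -0.47 from S0 to S4, a contrast that was not tested. Gsta4 differed by 0.19 (SE 0.13) and Gclc by 0.12 (SE 0.096), each higher in 4 of 6 pairs, and Gstp1 by -0.14 (SE 0.097), lower in 4 of 6. The limma adjusted p was 0.887 for each of these. Without S0 the values were 0.086 for Gsta4, 0.029 for Gclc and -0.076 for Gstp1; without S4 that of Gsta4 was 0.30, and without S5 that of Hmox1 was -0.33.

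Gclm, Srxn1 and Txnrd1 had fitted differences of -0.026 (SE 0.13), -0.11 (SE 0.14) and -0.12 (SE 0.14), with limma adjusted p of 0.973, 0.910 and 0.900. The sign of all 3 came from pair S0, where they differed by -0.71, -0.88 and -0.89. Without S0 they were at 0.11, 0.049 and 0.032. In S0, 6 of the 9 genes differed by at least 0.5 in size, as did 32.1% of all genes. In S1 and S2 it was 1 of the 9 each, against 5.23% and 1.54% of all genes, and in S3, S4 and S5 it was none, against 2.67%, 3.62% and 9.13%. The median over the 9 genes was -0.43 in S0, 0.21 in S1, 0.066 in S2, 0.14 in S3, -0.17 in S4 and 0.091 in S5, so the pairs did not share a direction.

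**Figure D2:**
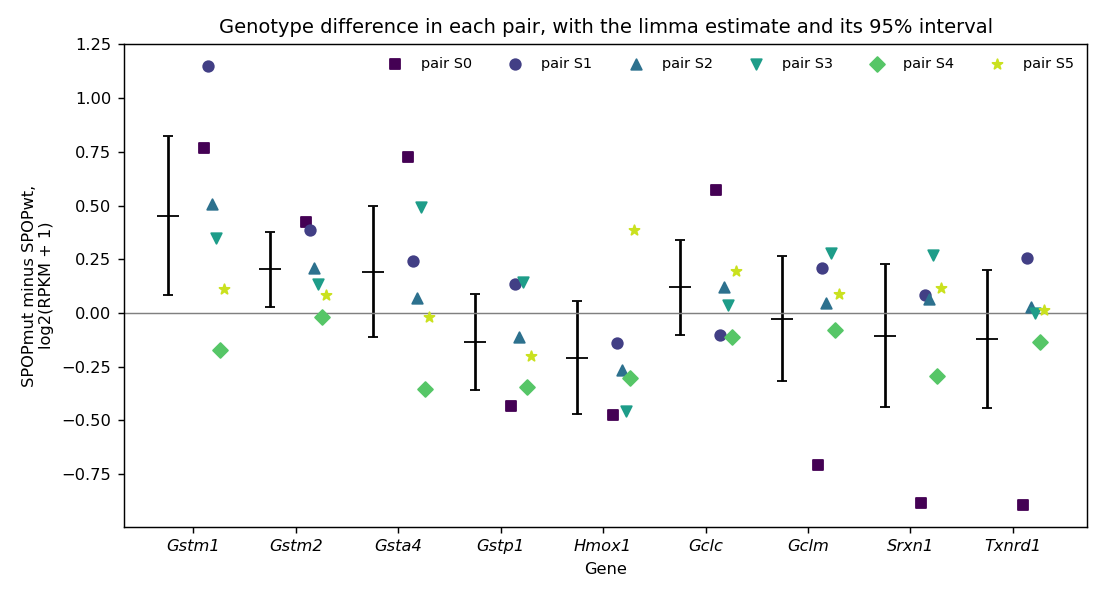
SPOPmut minus SPOPwt on the log2(RPKM + 1) scale (vertical axis) for the 9 genes tested; coloured marks are the 6 pairs and the black bar is the limma estimate with its 95% interval. The intervals of Gstm1 (0.084 to 0.82) and Gstm2 (0.027 to 0.38) lie above 0 before adjustment over all genes, and the S0 values of Gclm, Srxn1 and Txnrd1 (-0.71 to -0.89) lie well below their other pairs.

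The comparison of S5 with S0 to S4 describes how the genes stood in the epithelial-marker pair, and since S5 is 1 pair it has no test. Both S5 libraries lay above all 10 others in 2 of the 10 genes and below them in 4. Over 15508 genes that reached an RPKM of 1 in 2 or more libraries, those reaching it in S5 alone included, 24.9% lay above and 27.0% below. That is 52.0% in all, so being outside that range was common. The median difference over the 10 genes was -0.30 on the log2 scale, against -0.039 over those genes.

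The size of 3 of the differences was less common, but the genes were chosen with earlier results of these data known. Gstm1 had a mean RPKM 34.6 times lower in S5 than in S0 to S4 (log2 difference -4.45) and Gstm2 one 125 times lower (-4.68), at percentiles 0.477 and 0.380 of all genes. Gsta4 was 52.4 times higher (5.43), at percentile 99.7. Srxn1 was 2.56 times lower and Gstp1 1.69 times lower, and Txnrd1 was 1.57 times higher. Hmox1 (2.00 times higher), Gclc (1.63 times higher), Gclm (1.67 times lower) and Nqo1 overlapped the range of S0 to S4. The marker sums given above moved with all of these differences, and their part was not tested. In these bulk libraries, fewer cells of a type and less RNA per cell cannot be told apart.

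Other transferases stood on either side of S0 to S4 in S5, or overlapped it. Among the mu-class genes next to Gstm1, Gstm7 was 24.2 times lower in S5, Gstm4 5.34 times and Gstm5 3.89 times. Gstm3 and Gstm6 were near 0 in every library, at or under 0.271 and 0.145 RPKM. Gstm3 was 7.73 times lower in S5 and below all others, and Gstm6 overlapped. Gsto1, the omega-class transferase that reduces dehydroascorbate, was at 644 to 824 RPKM in S5 and 64.2 to 147 in the others, 7.00 times higher. Of the 12 soluble transferases that reached an RPKM of 1 in 2 or more libraries, 4 lay above and 7 below the other pairs in S5. Of all such genes 24.9% and 27.0% did. The 12 include Gstm1, Gstm2, Gsta4 and Gstp1, given above. Gsta1 (2.15 to 2.37 RPKM in S5) and Gstt3 (1.93 to 2.14) reached that level only in S5, so the filter set their place above. The 3 membrane transferases all overlapped the range of S0 to S4.

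**Figure D3:**
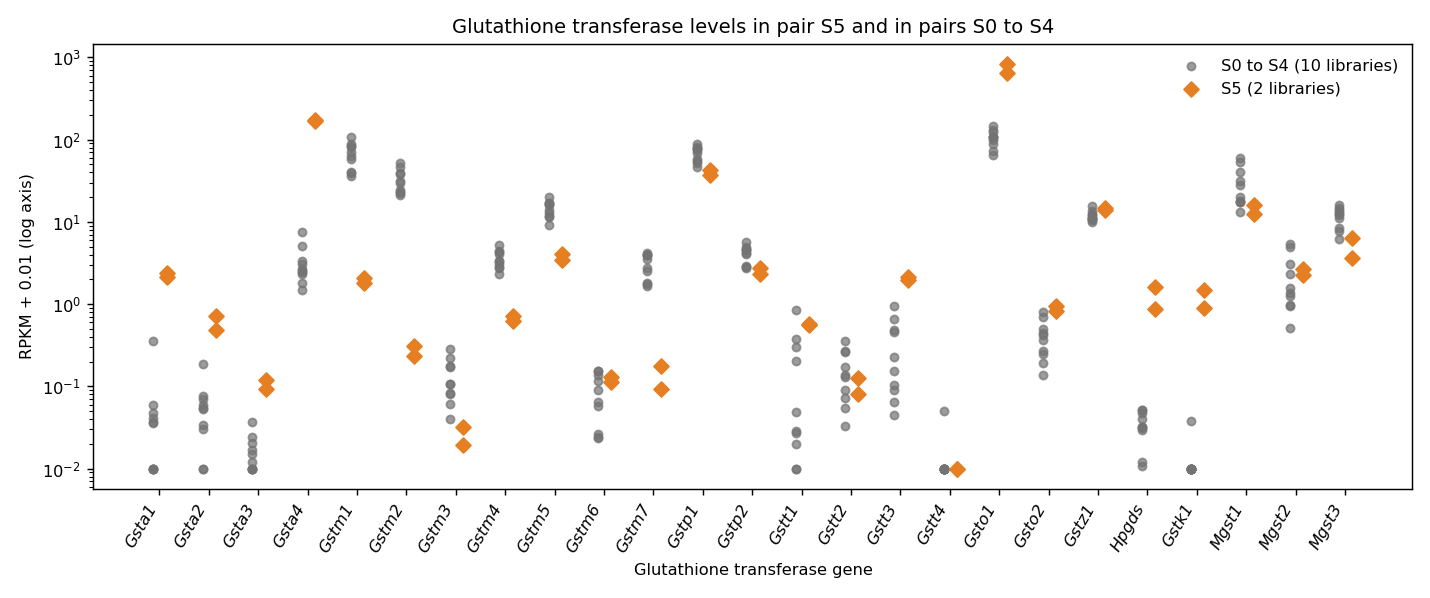
RPKM + 0.01 (vertical log axis) of the soluble and membrane glutathione transferases in the 10 libraries of S0 to S4 (grey circles) and the 2 of S5 (orange diamonds). Gsta4 and Gsto1 reach 171 and 824 RPKM in S5, and Gstm1, Gstm2 and Gstm7 are lower there than in every library of S0 to S4.

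Within S0 to S4 the genes varied by different amounts. Gclc had the widest range of the 9 genes tested, 2.19 on the log2 scale or 5.55-fold in RPKM, and Txnrd1 the narrowest, 0.89 or 1.89-fold. Gclc in S3 and S4 was at 3.61 to 5.23 RPKM against 13.1 to 20.04 in S0 to S2, 3.66 times lower by the means. Gstm2 was at 38.5 to 51.2 against 21.2 to 31.5, 1.72 times higher, and the other 8 genes overlapped. This split of the pairs was noticed in the values and has no test; over all genes, 16.8% lay above and 7.52% below, 24.3% in all. The modifier subunit Gclm, at 23.0 to 38.1 RPKM in S3 and S4, was also lower by the means, 1.39 times. It overlapped the range of S0 to S2 only through the S0 mutant at 30.1, as the other libraries there were at 42.6 to 49.8. Both subunits were thus lower by the means in S3 and S4, Gclc by more. Gclc and Gclm had r = 0.64 across S0 to S4. Their genotype differences had opposite signs in S0 and S1 and the same sign in S2 to S4.

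Across the 10 libraries of S0 to S4, Gclm, Srxn1, Txnrd1 and Gstp1 went up and down together. Pearson's r of log2(RPKM + 1) was 0.97 for Gclm with Srxn1, 0.96 for Gclm with Txnrd1, 0.94 for Srxn1 with Txnrd1 and 0.96 for Gstp1 with Srxn1. Each of the 4 has a promoter match shown above, though not in every window of Txnrd1. The windows of Gstm1, Gstm2 and Nqo1 held none, and Gsta4, Hmox1 and Gclc had no window to search. Of all windows 16.6% held either motif, a share per window and not per gene. Whether the match bears on the shared pattern was not tested. Gstm1 and Gstm2 went together (r = 0.88), and Gstm2 ran the opposite way to Srxn1 (r = -0.85) and Gclm (r = -0.79). The 10 points come from 5 pairs and share library depth and pair, so these values describe the libraries only. With S5 included, Txnrd1 no longer went with Gclm (r = 0.15, 12 libraries), Srxn1 (r = -0.04) or Gstp1 (r = 0.02). The sign for Gstm2 turned over, to r = 0.63 with Srxn1 and 0.48 with Gclm. Gclm with Srxn1 (r = 0.97), Gstp1 with Srxn1 (r = 0.97) and Gstm1 with Gstm2 (r = 0.99) still went together.

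**Figure D4:**
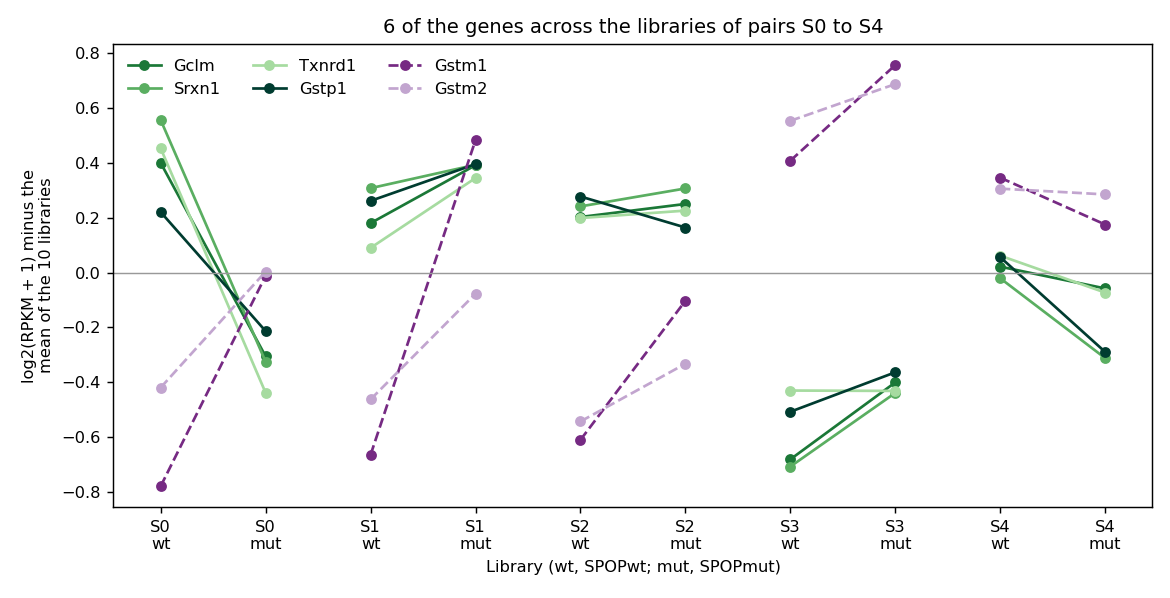
log2(RPKM + 1) minus the mean of the 10 libraries (vertical axis) for 6 genes in each library of S0 to S4; lines join the libraries of a pair. Gclm, Srxn1, Txnrd1 and Gstp1 (solid) are below their means in the S0 mutant and in S3, and Gstm1 and Gstm2 (dashed) have their highest value in the S3 mutant.

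The genes most like Gclc over the 12 libraries were Bloc1s2 (r = 0.965), Megf9 (r = 0.962) and Baiap2l1 (r = 0.954), and within S0 to S4 these had r of 0.964, 0.956 and 0.957. Those most like Txnrd1 were Utp20 (r = 0.992), Zdhhc3 (r = 0.985) and Ywhag (r = 0.983), with 0.987, 0.974 and 0.987 within S0 to S4. They were picked for this likeness among the 13600 genes, so the values are a description.

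The rest of the pathway was read from 89 genes in 11 lists, the 10 members included, of which 88 were in the files and 68 were tested. In SPOPmut 33 were higher and 35 lower, none passed in limma, and 5 had an unadjusted p under 0.05, where 5.60% of all genes did. The median difference was -0.0034 on the log2 scale. In at least 5 of 6 pairs 14 were higher and 8 lower, against 15.6% and 9.67% of all genes. Of the 72 that reached an RPKM of 1 in 2 or more libraries, 26.4% lay above all other libraries in S5 and 34.7% below, beside 24.9% and 27.0% of all such genes. Gsta1, Gstt3 and Gpx2 reached that level only in S5, so the filter set their place above.

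Of the regulators, 3 of 9 were higher and 6 lower. Nfe2l2, which encodes NRF2, differed by -0.070 (SE 0.083, limma adjusted p = 0.901), Keap1 by -0.087 (SE 0.072, adjusted p = 0.887) and Cul3 by 0.055 (SE 0.088, adjusted p = 0.922). None of the 3 passed. In S5, 3 of the 9 regulators lay above the other pairs, 2 below and 4 overlapped, where 52.0% of all genes lay outside. Nfe2l2 was at 52.1 to 56.6 RPKM in S5 and 26.7 to 40.3 in the others. Of the small MAF partners of NRF2, Mafk was 4.52 times higher and Mafg 1.67 times higher, while Maff overlapped. The 4 regulators that overlapped were Maff, Rbx1, Bach1 and Sqstm1. Keap1 was at 6.82 to 8.03 against 10.7 to 15.5, and Cul3 at 15.01 to 15.3 against 17.5 to 37.1. Bach1, the repressor that competes at the same elements, differed by 0.13 (SE 0.084), and Sqstm1, an autophagy receptor that binds KEAP1, was the most abundant regulator at 73.1 to 137 RPKM.

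Of 10 soluble transferases tested, 8 were higher in SPOPmut and 2 lower, with a median of 0.20, where 6834 of all 13600 genes were higher. Among them were 4 of the 5 genes at an unadjusted p under 0.05, all 4 higher, a level that 3.82% of all genes reached in that direction. Beside Gstm1 and Gstm2 these were Gstm7, at 0.50 (SE 0.13, limma unadjusted p = 0.0043, adjusted p = 0.769), and Gsto1, at 0.26 (SE 0.075, unadjusted p = 0.0075, adjusted p = 0.871), each higher in 6 of 6 pairs, as were 3.62% of all genes. Gstm7 was a low transcript, at most 4.22 RPKM. The fifth gene was Cbr1, a carbonyl reductase, at 0.19 (SE 0.077, limma adjusted p = 0.886). Gstm5 was at 0.21 and Gstm4 at 0.047. The 3 membrane transferases were 2 higher and 1 lower, with Mgst3 at 0.37 (SE 0.18) and Mgst1, the most abundant, at 0.13 (SE 0.17).

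The other lists held no gene at an unadjusted p under 0.05 apart from Cbr1. In glutathione synthesis and cystine supply 3 of 6 were higher, with Gsr, glutathione reductase, at -0.18 (SE 0.12) and Slc3a2, the most abundant, at 0.082. Of 11 thioredoxin and peroxiredoxin genes 4 were higher, with Prdx6 at -0.19 (SE 0.085), Txn2 at -0.21 (SE 0.12) and Txn1, the most abundant, at -0.066. NADPH supply had 1 of 6 higher, which was Idh1 at 0.17 (SE 0.074), while G6pdx was at -0.11 (SE 0.074) and Tkt, the most abundant by its mean, at -0.075 (SE 0.072). Among heme and iron genes 1 of 5 was higher, the ferritin heavy chain Fth1 at 0.16 (SE 0.12), while Blvrb, a biliverdin reductase, was at -0.11 (SE 0.065). Conjugate export had 3 of 4 higher, with the efflux pumps Abcc1 at -0.15 (SE 0.080), Abcc3 at 0.10 (SE 0.093) and Abcc4 at 0.052 (SE 0.13), and superoxide and peroxide removal had 2 of 3 higher, with catalase (Cat) at 0.14 and Sod1 at -0.14. In the glutathione peroxidases 1 of 3 was higher, Gpx8 at 0.11 (SE 0.062), while Gpx4 was at -0.073 (SE 0.080) and Gpx1, the most abundant, at -0.021 (SE 0.069). In quinone, carbonyl and epoxide metabolism 5 of 8 were higher; beside Cbr1, Cbr3 was at 0.19 (SE 0.087) and the epoxide hydrolase Ephx1, the most abundant, at 0.13 (SE 0.11).

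Several of these genes stood far from S0 to S4 in S5 and were picked after their values were seen. Gpx2, an epithelial glutathione peroxidase, was at 104 to 129 RPKM in S5 and at most 0.066 in the others, and Aldh3a1, an aldehyde dehydrogenase, was 24.6 times higher there. Slc7a11, the cystine transporter, was 5.18 times higher, Gss, glutathione synthetase, 2.87 times and Gsr 2.43 times. Prdx4, a peroxiredoxin of the endoplasmic reticulum, was 12.6 times lower and Fth1 3.02 times lower. Nqo1 was near 0 in S5 too, at 0.0287 and 0.282 RPKM.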

How the data were processed

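The deposited values are RPKM, computed by the authors, 1 column per library. Reads were aligned with STAR 2.4.0j to mm10 (GRCm38), per the submitters' processing notes; no source used here gives the counting program or annotation. Paired-end reads of 51 bases came from a kit that does not mark strand, per the labels' protocols. Of low values, 39.4 to 43.7% lay within 0.05 of a whole read at the estimated depth, so whole reads were not recovered, no count test was run, and depth (28300000 to 41100000 reads) is approximate.

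Values were taken as log2(RPKM + 1), which understates changes of low genes. The 13600 genes that reached an RPKM of 1 in 6 or more of the 12 libraries were kept. limma 3.58.1 in R 4.3.3 fitted pair and genotype with a trended, robust prior, two-sided, with Benjamini-Hochberg adjustment over all genes and calls under 0.05. The fit was also run on simulated data with the same spread for all genes and pairs. In the real pairs the SD of the log2 differences was 0.56 in S0 and 0.16 in S2, so the simulation does not vouch for the fit here. Tables used pandas 2.3.3 and numpy 2.4.6 in Python 3.11.15, and plots matplotlib 3.10.9. The protocols speak of pairs. Deviations of same-numbered libraries from their group means correlated at 0.753 to 0.954 across genes in S1 to S5 and at 0.0602 in S0.

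Coordinates and 51-base stretches are from GENCODE M21, and promoters from RefSeq. The members and lists were chosen with earlier results of these data known. The regulators of NRF2 were all named for their place in S5. Named genes were all 10 members; in each pathway list those passing the test or else the 2 of smallest p, with the most abundant tested gene; Nfe2l2, Keap1 and Cul3; the gene of highest level in any library in each marker list; near-identical paralogs of members; and the 3 genes most correlated with the members of widest and narrowest range. Alternatives tried were another pseudocount, other filters, quantile normalization, no pair block, no trend or robust prior, each pair left out, S0 and S5 left out together, and single-genotype contrasts of S5.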

Additional observations from a re-analysis of the deposited data

Results flagged for a closer look

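The 30 groups of 6 values were the levels of a gene in a genotype, or its differences in the 6 pairs. In 8 of them an end value was separated from the rest by more than Dixon's 95% limit. Chance exceeds that limit in about 1 of 20 groups, but these groups share libraries and pairs and are not independent. The share over all genes was not computed. Beside it, 52.0% of all genes lay outside the range of S0 to S4 in S5, and 32.1% differed by at least 0.5 in S0. Of the 8 groups, 6 were the S5 libraries of 3 transferases. Gstm1 was at 2.04 RPKM in the S5 mutant and 1.81 in its control, Gstm2 at 0.299 and 0.226, and Gsta4 at 169 and 171. The other 2 were the S0 differences of Gclm (-0.71) and Txnrd1 (-0.89), each far below the same gene's other pairs. Hmox1 was higher in the mutant in S5, by 0.39 on the log2 scale, and lower in every pair of S0 to S4; that difference was not tested.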

How the results depend on the processing

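No gene, and none of the members, passed the adjusted threshold under any alternative. The lowest limma adjusted p of a member over the alternatives was 0.317, for Hmox1 without S0 and S5. Leaving out S0 reversed the sign of Gclm (0.11), Srxn1 (0.049) and Txnrd1 (0.032), and leaving out S0 and S5 together gave 0.12, 0.032 and 0.037, with Gclc at -0.013; the cause was not tested. With single pairs left out, the ranges were -0.087 to 0.11 for Gclm, -0.18 to 0.049 for Srxn1 and -0.20 to 0.032 for Txnrd1, the median over the members ran from -0.087 to 0.049, and the count at an unadjusted p under 0.05 from 544 to 1076. That count, 761 of 13600 in the reported fit (5.60%), was 1467 of 30285 with no filter (4.84%), 1255 of 13600 without S0 and S5 and 29 with no replicate block, a fit that ignores the pairing. Under quantile normalization 458 of 824 such genes were higher in SPOPmut, against 520 of 761. The S5 difference of Nqo1 was -0.10 in the SPOPmut libraries alone, 0.27 in the SPOPwt libraries and 0.36 with a pseudocount of 0.1, at levels near 0, and that of Gstm2 was -6.45 with that pseudocount. Dropping the block changed no call, but the SE rose, from 0.16 to 0.98 for Gstm1 and from 0.13 to 1.19 for Gsta4. The estimated depth gave Nqo1 at most 18.0 reads, which limits it to a statement of low level.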
